A study of Homo sapiens with 18 samples.

Results

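The J-domain cochaperones are the human genes DNAJA, DNAJB and DNAJC, and their transcripts were compared here in every group of a heat shock experiment on SW620 cells. Members were the gene symbols made of DNAJ, a class letter (A, B or C) and a number, if they passed 1 CPM, a count scaled to library size, in at least 3 of the 18 libraries. Of 43 symbols with that form, 38 passed, out of 12832 genes tested and 26485 symbols in the counts. They fell into class A (4 members), class B (9 members) and class C (25 members). By textbook knowledge of where each protein sits, 13 were placed in the cytosol, 3 in the nucleus (DNAJC8, DNAJC9, DNAJC17), 10 in the endoplasmic reticulum (ER), 5 in mitochondria and 3 in vesicles or endosomes (DNAJC5, DNAJC6, DNAJC13). The 4 without one clear site (DNAJC4, DNAJC22, DNAJC25, DNAJC27) were kept apart. Cells had received a scramble siRNA or siRNA against LONP1 (siLonp1), for which the methods name 2 siRNAs without saying how the libraries used them. Libraries came from cells held at 37 °C (Ctrl), heated at 42 °C for 1 h (HS), or heated the same way and returned to 37 °C for 1 h (HS+REC). Each of the 6 groups had 3 libraries, which the paper calls 3 independent biological replicates. Library totals ran from 30815860 to 47279297 counts (median 40847024.5), and the scaling factors of the trimmed mean of M-values (TMM) from 0.934 to 1.06.

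J-domain proteins bind clients and hand them to HSP70, whose ATPase they switch on through a conserved histidine-proline-aspartate motif. Class A members carry a glycine and phenylalanine rich stretch and a zinc-finger domain, class B members carry the stretch without the zinc finger, and class C members share the J domain alone. Heat unfolds proteins and frees the transcription factor HSF1, which binds repeats of the unit nGAAn, so J-domain genes are among those read in heat shock studies.

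All 38 members passed 1 CPM in every library, counted against the library total. The members nearest the limit were DNAJC27 (1.83 to 7.38 CPM) and DNAJB5 (2.01 to 3.43 CPM). Just outside were DNAJC28, with at most 0.495 CPM, and DNAJB13, with at most 0.138 CPM, while DNAJB3, DNAJB7 and DNAJB8 had no count in any library. Genes just outside were not tested. Markers of the line, also against the library total, were read as a check on the cells. KRT8 stood at 4199 to 6162 CPM, KRT18 at 2485 to 3439, EPCAM at 346 to 434 and VIL1 at 244 to 369.8. KRT20 (at most 1.21 CPM) and LGALS4 (at most 0.435 CPM) were near background, and CDX1 had no count. Immune markers summed to 0.248 to 1.80 CPM and endothelial markers to 0.653 to 1.51 CPM. Fibroblast markers summed to 21.0 to 61.4 CPM, nearly all LUM and COL1A1, with COL3A1 at no count and DCN at most 0.163 CPM. CDX2 (9.64 to 32.1 CPM), CDH17 (0.918 to 13.0 CPM) and LUM were lower with siLonp1 in each condition, VIL1 was lower with siLonp1 in Ctrl and HS+REC, COL1A1 was higher in HS and HS+REC than in Ctrl, and CD14 was higher in HS and HS+REC than in Ctrl in both arms. These descriptions compare the ranges of the libraries, other markers also differed between groups, and their part in the results was not tested. In bulk RNA, fewer cells of a type and less RNA per cell cannot be told apart.

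The siRNA target was read first. LONP1 levels with scramble were 223, 225 and 215 CPM in Ctrl, 219, 227 and 197 after HS and 225, 197 and 233 after HS+REC. With siLonp1 the LONP1 levels were 19.4, 22.5 and 19.5 CPM in Ctrl, 11.8, 11.5 and 11.8 after HS and 27.1, 25.6 and 28.9 after HS+REC. In all 3 conditions every siLonp1 library lay far below every scramble library. The siLonp1 effect on LONP1 was a log2 fold change (log2FC) of -3.43 ± 0.08 (adjusted p = 1.7e-19) in Ctrl. It was -4.19 ± 0.08 (adjusted p = 6.4e-21) after HS and -3.01 ± 0.08 (adjusted p = 2e-18) after HS+REC, where ± gives the standard error and p is adjusted over all genes tested. Transcripts of HSF1, the factor behind the heat response, fell with siLonp1 as well, by 0.24 in Ctrl (adjusted p = 0.00754), by 0.43 in HS (adjusted p = 2.4e-05) and by 0.39 in HS+REC (adjusted p = 6.1e-05). Without Ctrl siLonp1 replicate 3 the call for HSF1 in Ctrl ended (log2FC -0.19, adjusted p = 0.0524). Replicate 3 of HS+REC siLonp1 stood below the other 2 libraries of its group for several heat-raised members (DNAJA1, DNAJA4, DNAJB1, DNAJB4 and DNAJB6). The log2FC of members below were also refitted with each library left out in turn, while levels, sums and shares were not.

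Levels were set side by side between genes only after division by the length of the merged exons (CPM per kb). In Ctrl with scramble the most abundant members were DNAJA1 (113 CPM per kb), DNAJC8 (61.7), DNAJC9 (44.0), DNAJA2 (30.4) and DNAJB1 (29.2). In HS with scramble the order changed to DNAJB1 (648), DNAJA1 (351) and DNAJA4 (67.8). The sum over the 38 members with scramble was 530.0 CPM per kb in Ctrl, 1449.9 after HS and 1871 after HS+REC, as means of 3 libraries. With siLonp1 the sums were 545, 1776 and 2142. The added signal came from classes A and B, and the mean class C sum after HS or HS+REC was not above Ctrl in either arm. Class A went from 168 to 467 and 723 CPM per kb with scramble, class B from 75.6 to 727 and 862, and class C from 287 to 256 and 286. As a share of all members, class B went from 14.3% in Ctrl to 50.1% in HS with scramble, and class C from 54.1% to 17.6%, while class A was 31.7% and 32.2%. With the longest transcript as length the class A share was lower in HS (29.2% in Ctrl and 26.5% in HS), so its direction depended on the length used. DNAJB1 alone made up 89.1% of class B in HS with scramble. The cytosolic share went from 43.6% to 81.7%, and the ER share from 18.2% to 6.01%, although the ER sum itself moved only from 96.6 to 87.0 CPM per kb. These sums were described and not tested.

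**Figure D1:**
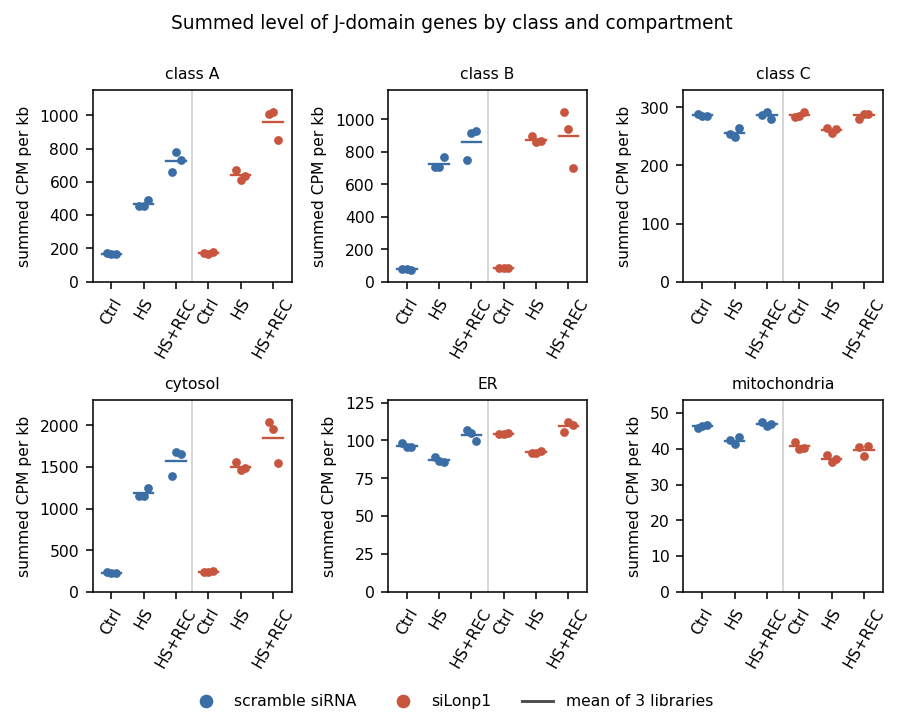
Summed CPM per kb of the J-domain members of each class, and of those in the cytosol, ER and mitochondria, in every library by condition and siRNA. Each point is a library and each line the mean of 3.

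After heat alone, 17 of 38 members changed with scramble, 8 raised and 9 lowered, in edgeR at a Benjamini-Hochberg false discovery rate (FDR) of 0.05. Of all genes tested, 36.0% changed, 18.6% raised and 17.3% lowered. A fold change over 2 besides the FDR was met by 4 members, against 3.3% of all genes. The median log2FC of the members was -0.09, that of all genes -0.01. With siLonp1, 19 members changed after heat, 8 raised and 11 lowered, beside 42.2% of all genes (20.2% raised, 22.1% lowered). Here 6 members also passed a fold change of 2, beside 4.57% of all genes, and the medians were 0.01 and 0.00. The raised sets of the arms shared 7 members (87.5% of each), namely DNAJA1, DNAJA4, DNAJB1, DNAJB2, DNAJB4, DNAJB6 and DNAJC24, all of them cytosolic. The lowered sets shared 6 members (66.7% of the scramble set, 54.5% of the siLonp1 set). Counts by class and compartment are descriptions, and no test compared the classes or compartments. With scramble, class A had 2 raised, class B had 4 raised and 1 lowered, and class C had 2 raised and 8 lowered. With siLonp1 the same classes had 2 raised, then 4 raised and 1 lowered, then 2 raised and 10 lowered. In the cytosol 7 of 13 were raised in either arm, and the only raised members elsewhere were DNAJC6 with scramble and DNAJC15 with siLonp1. The lowered cytosolic members were DNAJC21 in both arms and DNAJC2 with siLonp1. The lowered mitochondrial members were DNAJC11 in both arms, DNAJC19 with scramble and DNAJC30 with siLonp1. In the ER 2 of 10 were lowered with scramble and 3 of 10 with siLonp1, shares near those of all genes. When 1 library at a time was left out, 11 of the 17 scramble calls and 17 of the 19 siLonp1 calls held in every fit.

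**Figure D2:**
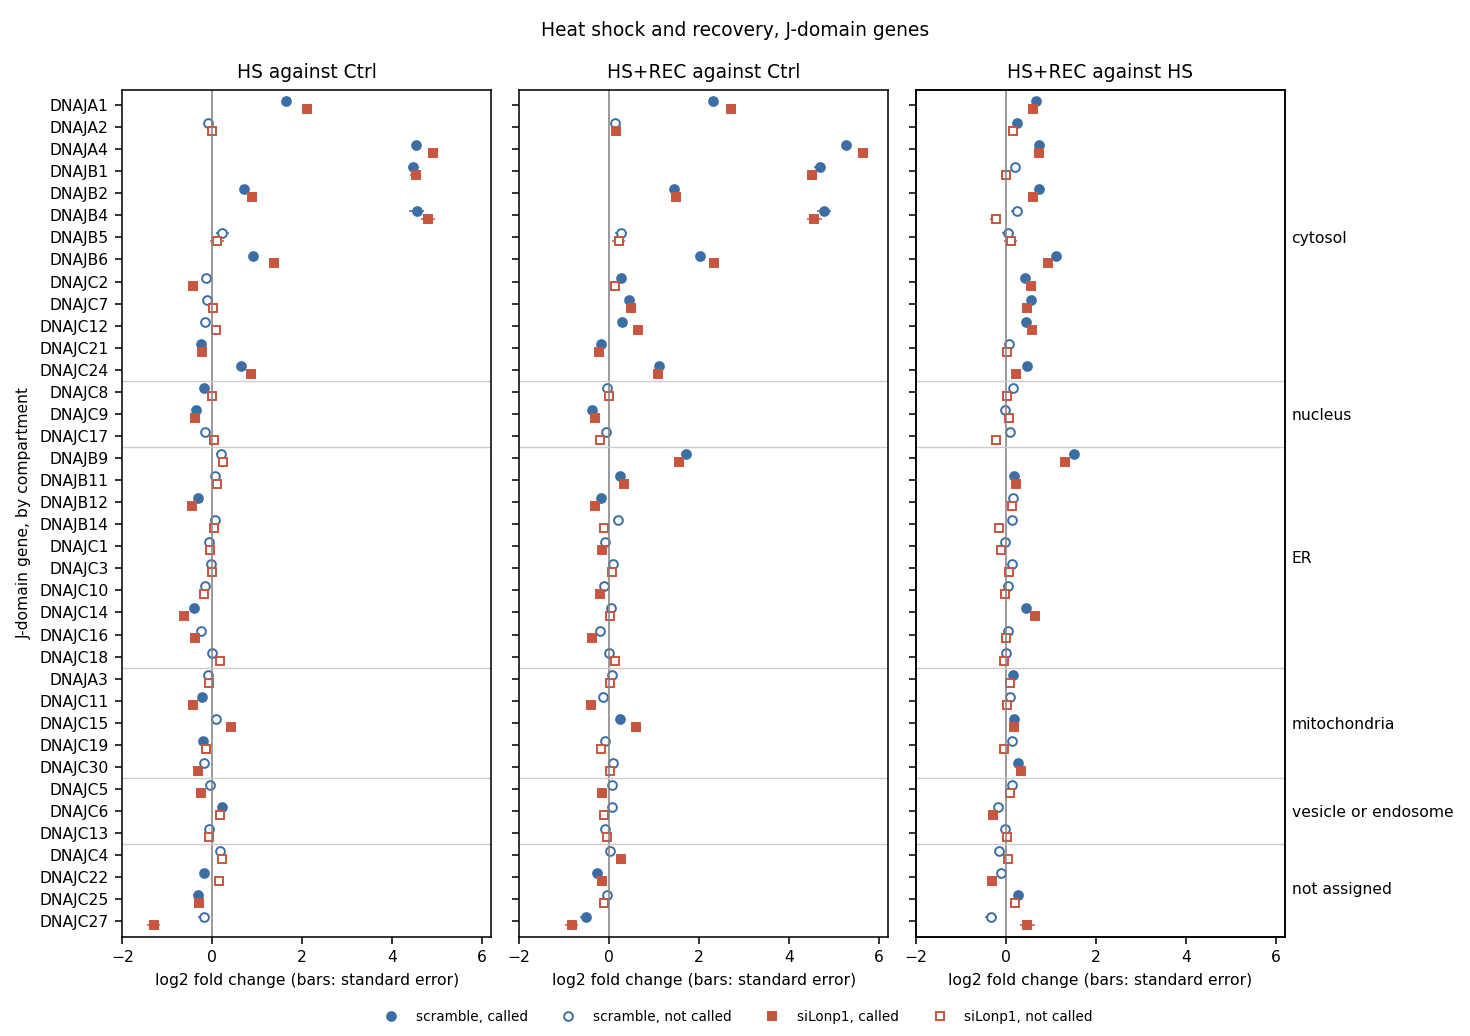
Log2 fold change of all 38 members, ordered by compartment, in HS against Ctrl, HS+REC against Ctrl and HS+REC against HS, for scramble and siLonp1. Filled symbols passed the FDR limit, and bars give the standard error.

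DNAJB1, a cytosolic class B member that brings HSP70 to misfolded proteins, lies at chr19:14514769-14560391, minus strand (GRCh38, GENCODE release 44). DNAJB1 levels with scramble were 242, 247 and 228 CPM in Ctrl, 5149, 5160.5 and 5607 after HS and 5219.7, 6500.5 and 6671 after HS+REC. With siLonp1 the DNAJB1 levels were 290.2, 267 and 276 CPM in Ctrl, 6545, 6297 and 6319 after HS and 7543, 6639 and 4836 after HS+REC. Every heated library lay far above every Ctrl library, HS and HS+REC overlapped in both arms, and siLonp1 lay above scramble in Ctrl and HS and overlapped it in HS+REC. Heat raised DNAJB1 with scramble (log2FC 4.47 ± 0.12, adjusted p = 8.1e-19) and with siLonp1 (log2FC 4.52 ± 0.12, adjusted p = 6.6e-19). In HS+REC the effect was 4.68 ± 0.12 (adjusted p = 3.3e-19) with scramble and 4.51 ± 0.12 (adjusted p = 4.1e-19) with siLonp1. HS+REC and HS did not differ past the limit (log2FC 0.21 ± 0.10, adjusted p = 0.152 with scramble, and log2FC -0.01 ± 0.10, adjusted p = 0.956 with siLonp1). The DNAJB1 change from HS to HS+REC with scramble was called with no filter on low counts (adjusted p = 0.0237) and in 2 fits that each left out 1 library (adjusted p 0.0301 to 0.0385), without HS+REC scramble replicate 1 and HS+REC siLonp1 replicate 3. The siLonp1 effect in HS was 0.27 ± 0.10 (adjusted p = 0.0337), in Ctrl 0.22 ± 0.11 (adjusted p = 0.0909) and in HS+REC 0.05 ± 0.10 (adjusted p = 0.719). The call for siLonp1 on DNAJB1 in HS ended in 5 fits that each left out 1 library (log2FC 0.25 to 0.28, adjusted p 0.0577 to 0.0942), without HS scramble replicates 1 and 2 and HS siLonp1 replicates 1, 2 and 3. Uncalled values for siLonp1 on DNAJB1 in HS were 0.17 (adjusted p = 0.147) with library totals as the only scaling. The DNAJB1 difference between arms in Ctrl was called with no filter on low counts (adjusted p = 0.00405) and a fit of the compared groups alone (adjusted p = 0.000637) and in 2 fits that each left out 1 library (adjusted p 0.0187 to 0.0460), without HS+REC siLonp1 replicates 1 and 3. The DNAJB1 difference between arms in HS+REC was called without HS+REC siLonp1 replicate 3 (log2FC 0.21, adjusted p = 0.0368). The interaction of siLonp1 and HS was not called (log2FC 0.05 ± 0.15, adjusted p = 0.915).

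Promoters of 300 bases around each RefSeq start site (250 before it) were searched for the binding units of HSF1 as a description of sequence only, and no test of binding was made. A match to GAANNTTC or TTCNNGAA counted as 2 units, and either of them carried on by the next inverted unit after a 2-base gap as 3 units. Of 47 promoters of 35 members, 8 promoters of 7 members held 2 units (17.0%), beside 13.5% of all 35116 promoters and 10.1% of those of tested genes. A 3-unit match was found in 2 of the 47 (4.25%) and in 0.490% of all promoters. The 7 members were DNAJA1, DNAJA4, DNAJB1, DNAJB4, DNAJB6, DNAJC6 and DNAJC15, and the pair with 3 units was DNAJA1 and DNAJB6. Promoters of 5 members are printed to show where the units lie, and that of DNAJA1 is not, as its match before the start site falls on bases annotated as untranslated. All 5 printed stretches lie within the annotated span of their gene, which begins further upstream. The DNAJB1 sequence is chr19:14518408-14518647 on the minus strand, 240 bases from -250 to -11 of the start site, written in the direction of transcription with matches in capitals. Its matches begin at -77 and -47.
DNAJB1: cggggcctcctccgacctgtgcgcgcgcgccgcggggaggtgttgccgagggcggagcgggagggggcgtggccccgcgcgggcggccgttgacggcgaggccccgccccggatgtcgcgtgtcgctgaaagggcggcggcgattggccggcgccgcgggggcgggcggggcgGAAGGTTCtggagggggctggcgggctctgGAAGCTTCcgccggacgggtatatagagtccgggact

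DNAJA4 (class A, chr15:78264086-78282196, plus strand) and DNAJB4 (class B, chr1:77979175-78017964, plus strand) were low in Ctrl and had heat effects as large as that of DNAJB1. DNAJA4 levels with scramble were 19.3, 19.6 and 19.2 CPM in Ctrl, 438, 459.8 and 443 after HS and 675, 804 and 749 after HS+REC. With siLonp1 the DNAJA4 levels were 17.7, 18.7 and 17.3 CPM in Ctrl, 536, 538 and 544 after HS and 942, 969 and 781 after HS+REC. DNAJA4 rose in steps from Ctrl to HS to HS+REC in both arms with no overlap between these groups, and siLonp1 lay below scramble in Ctrl, above it after HS and across it after HS+REC. In Ctrl the siLonp1 effect on DNAJA4 was not called (log2FC -0.12, adjusted p = 0.236). With library totals as the only scaling it was called (log2FC -0.19, adjusted p = 0.0422). Heat raised DNAJA4 with scramble (log2FC 4.53 ± 0.08, adjusted p = 4.5e-22) and with siLonp1 (log2FC 4.91 ± 0.08, adjusted p = 1.1e-22). HS+REC lay above HS with scramble (log2FC 0.73 ± 0.07, adjusted p = 1.8e-08) and with siLonp1 (log2FC 0.73 ± 0.07, adjusted p = 1.2e-08). The siLonp1 effect was 0.27 ± 0.07 (adjusted p = 0.00198) after HS and 0.27 ± 0.07 (adjusted p = 0.00183) after HS+REC, while the interaction was not called at 0.39 ± 0.10 (adjusted p = 0.0563) after HS and 0.39 ± 0.10 (adjusted p = 0.0593) after HS+REC. The interaction for DNAJA4 in HS was called with no filter on low counts (adjusted p = 0.0135), DESeq2 (adjusted p = 0.0198), the likelihood ratio test (adjusted p = 0.0261) and a fit of the compared groups alone (adjusted p = 0.00302) and in 5 fits that each left out 1 library (adjusted p 0.0170 to 0.0489), without HS+REC scramble replicates 1 and 2 and HS+REC siLonp1 replicates 1, 2 and 3. The interaction for DNAJA4 in HS+REC was called with relative log expression factors (adjusted p = 0.0483), no filter on low counts (adjusted p = 0.0246), DESeq2 (adjusted p = 0.0169) and the likelihood ratio test (adjusted p = 0.0266) and in 2 fits that each left out 1 library (adjusted p 0.00503 to 0.0276), without HS+REC scramble replicate 2 and HS+REC siLonp1 replicate 3. DNAJB4 levels with scramble were 4.72, 3.60 and 4.68 CPM in Ctrl, 99.8, 95.8 and 107 after HS and 109, 132 and 115 after HS+REC. With siLonp1 the DNAJB4 levels were 4.07, 4.25 and 4.47 CPM in Ctrl, 118, 116 and 120.3 after HS and 111, 123 and 69.3 after HS+REC. For DNAJB4 all heated libraries lay above Ctrl, HS+REC lay above HS with scramble but overlapped it with siLonp1, and the arms separated in HS only, with siLonp1 the higher. The heat effect on DNAJB4 was 4.54 ± 0.16 (adjusted p = 1.7e-16) with scramble and 4.79 ± 0.16 (adjusted p = 5.5e-17) with siLonp1. The siLonp1 effect on DNAJB4 was not called, at 0.23 ± 0.13 (adjusted p = 0.118) after HS and -0.23 ± 0.12 (adjusted p = 0.119) after HS+REC. The DNAJB4 difference between arms in HS was called with no filter on low counts (adjusted p = 0.00711) and a fit of the compared groups alone (adjusted p = 0.00415) and without HS+REC siLonp1 replicate 3 (log2FC 0.23, adjusted p = 0.0118). The downward DNAJB4 difference in HS+REC was called with library totals as the only scaling (adjusted p = 0.0394) and no filter on low counts (adjusted p = 0.0111) and without HS+REC siLonp1 replicate 2 (log2FC -0.40, adjusted p = 0.0108). Without HS+REC siLonp1 replicate 3 that difference was -0.02 (adjusted p = 0.832). HS+REC against HS was not called for DNAJB4, at 0.24 ± 0.12 (adjusted p = 0.175) with scramble and -0.23 ± 0.12 (adjusted p = 0.175) with siLonp1. The upward recovery difference with scramble was called with no filter on low counts (adjusted p = 0.0262) and a fit of the compared groups alone (adjusted p = 0.0487) and without HS+REC siLonp1 replicate 3 (log2FC 0.24, adjusted p = 0.0209). The downward recovery difference with siLonp1 was called with no filter on low counts (adjusted p = 0.00939) and without HS+REC siLonp1 replicate 2 (log2FC -0.40, adjusted p = 0.0185). The DNAJA4 promoter printed is chr15:78264314-78264543 on the plus strand, 230 bases from -248 to -19 of the start site, with matches at -91 and -52. The DNAJB4 promoter printed is chr1:78004689-78004938 on the plus strand, 250 bases from -250 to -1 of the start site, with a match at -98.
DNAJA4: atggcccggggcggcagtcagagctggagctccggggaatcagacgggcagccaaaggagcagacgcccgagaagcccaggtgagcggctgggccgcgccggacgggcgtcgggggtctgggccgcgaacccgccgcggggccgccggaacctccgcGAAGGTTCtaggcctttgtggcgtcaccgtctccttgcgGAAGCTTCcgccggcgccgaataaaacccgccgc
DNAJB4: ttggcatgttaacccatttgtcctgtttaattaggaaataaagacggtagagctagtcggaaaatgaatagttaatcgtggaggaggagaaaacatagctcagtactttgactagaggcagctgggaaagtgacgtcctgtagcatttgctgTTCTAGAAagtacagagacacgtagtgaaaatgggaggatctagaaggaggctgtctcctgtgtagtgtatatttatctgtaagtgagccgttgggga

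DNAJB2 (class B, chr2:219279342-219286898, plus strand) carries ubiquitin-interacting motifs, and DNAJC24 (class C, chr11:31369840-31432835, plus strand) takes part in diphthamide synthesis. DNAJB2 levels with scramble were 24.5, 23.1 and 22.1 CPM in Ctrl, 36.9, 39.0 and 37.5 after HS and 66.8, 55.1 and 66.6 after HS+REC. With siLonp1 the DNAJB2 levels were 32.0, 28.8 and 27.8 CPM in Ctrl, 57.8, 51.2 and 53.9 after HS and 88.4, 72.1 and 85.9 after HS+REC. DNAJB2 rose in steps through HS and HS+REC in both arms, and siLonp1 lay above scramble in all 3 conditions. The heat effect on DNAJB2 was 0.70 ± 0.09 (adjusted p = 6.2e-07) with scramble and 0.88 ± 0.08 (adjusted p = 1e-08) with siLonp1. In HS+REC it was 1.44 ± 0.09 (adjusted p = 2.1e-12) and 1.48 ± 0.08 (adjusted p = 8.7e-13). The siLonp1 effect on DNAJB2 was 0.35 ± 0.09 (adjusted p = 0.00201) in Ctrl, 0.52 ± 0.08 (adjusted p = 1.6e-05) after HS and 0.39 ± 0.08 (adjusted p = 0.000360) after HS+REC. DNAJC24 levels with scramble were 28.3, 26.9 and 28.2 CPM in Ctrl, 41.0, 43.9 and 45.7 after HS and 56.0, 67.9 and 56.1 after HS+REC. With siLonp1 the DNAJC24 levels were 25.9, 25.9 and 27.6 CPM in Ctrl, 50.1, 45.3 and 49.1 after HS and 56.1, 62.3 and 49.8 after HS+REC. DNAJC24 was the only class C member with a fold change over 2 upward in HS+REC, HS lay above Ctrl in both arms, HS+REC lay above HS with scramble and overlapped it with siLonp1, and the arms overlapped in every condition. Heat moved DNAJC24 by 0.65 ± 0.08 (adjusted p = 1.1e-06) with scramble and 0.86 ± 0.08 (adjusted p = 9.4e-09) with siLonp1. From HS to HS+REC it moved by 0.46 ± 0.08 (adjusted p = 9.5e-05) and 0.22 ± 0.08 (adjusted p = 0.0396). In 4 fits that each left out 1 library (log2FC 0.14 to 0.23, adjusted p 0.0683 to 0.235), the call for DNAJC24 in HS+REC against HS with siLonp1 ended, without HS siLonp1 replicates 2 and 3 and HS+REC siLonp1 replicates 1 and 2. The value for DNAJC24 in this comparison was also uncalled at 0.19 (adjusted p = 0.0763) with library totals as the only scaling and 0.22 (adjusted p = 0.0512) with a covariate for replicate number.

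**Figure D3:**
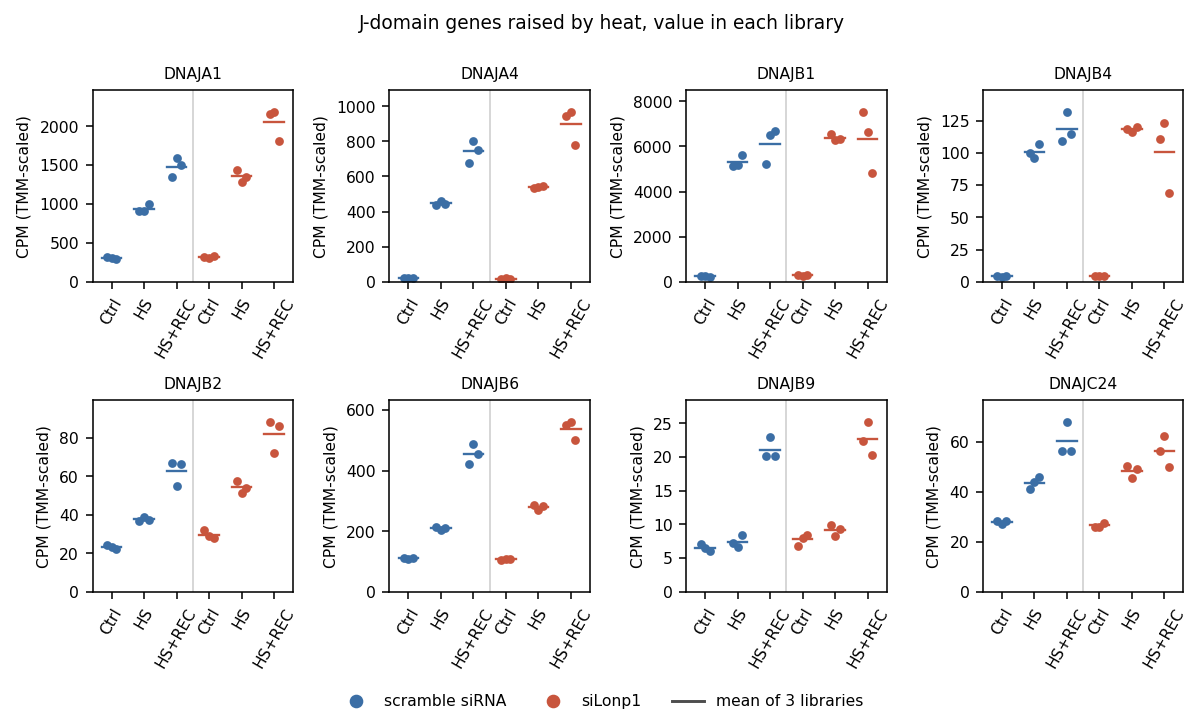
CPM in every library of 8 members raised by heat or in recovery, by condition and siRNA. Each point is a library and each line the mean of 3.

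The falls after heat lay mostly in class C, with 8 of 9 there with scramble and 10 of 11 with siLonp1, where class C held 25 of the 38 members. Over all genes 17.3% were lowered with scramble and 22.1% with siLonp1. DNAJC9, a nuclear histone chaperone at chr10:73183362-73247255, minus strand, shares 56.5% of its exon bases with FAM149B1 on the opposite strand. DNAJC9 levels with scramble were 140.2, 147 and 138 CPM in Ctrl, 109, 106 and 116 after HS and 106, 112 and 107 after HS+REC. With siLonp1 the DNAJC9 levels were 162, 154 and 174 CPM in Ctrl, 132, 116 and 127 after HS and 127, 127 and 140.3 after HS+REC. HS and HS+REC lay below Ctrl in both arms, and siLonp1 lay above scramble in all 3 conditions. Heat lowered DNAJC9 with scramble (log2FC -0.36 ± 0.06, adjusted p = 7.3e-05) and with siLonp1 (log2FC -0.39 ± 0.06, adjusted p = 2.2e-05), and HS+REC differed from Ctrl by -0.38 ± 0.06 (adjusted p = 2.8e-05) and -0.32 ± 0.06 (adjusted p = 0.000179). The siLonp1 effect was 0.21 ± 0.06 (adjusted p = 0.00880) in Ctrl, 0.18 ± 0.06 (adjusted p = 0.0177) after HS and 0.27 ± 0.06 (adjusted p = 0.000943) after HS+REC. Without Ctrl siLonp1 replicate 3 the call for siLonp1 on DNAJC9 in Ctrl ended (log2FC 0.16, adjusted p = 0.0644). Leaving out 1 library ended the call for siLonp1 on DNAJC9 in HS in 4 fits (log2FC 0.14 to 0.17, adjusted p 0.0532 to 0.0962), without HS scramble replicates 1 and 2 and HS siLonp1 replicates 1 and 3. Other settings gave uncalled values for siLonp1 on DNAJC9 in Ctrl, 0.13 (adjusted p = 0.0876) with library totals as the only scaling. Uncalled values for siLonp1 on DNAJC9 in HS were 0.09 (adjusted p = 0.257) with library totals as the only scaling.

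DNAJC14, an ER member tied to export of a dopamine receptor, lies at chr12:55820960-55830824, minus strand and shares 22.0% of its exon bases with ORMDL2 on the opposite strand. It also shares 12.9% with TMEM198B on the opposite strand and 23.2% with a protein-coding gene without a symbol on the same strand. DNAJC14 levels with scramble were 93.7, 88.7 and 89.1 CPM in Ctrl, 70.5, 67.1 and 67.6 after HS and 102, 87.4 and 91.4 after HS+REC. With siLonp1 the DNAJC14 levels were 94.2, 90.3 and 92.6 CPM in Ctrl, 59.1, 60.9 and 59.7 after HS and 93.9, 87.9 and 97.4 after HS+REC. HS lay below Ctrl in both arms, HS+REC overlapped Ctrl, and siLonp1 lay below scramble in HS. The heat effect on DNAJC14 was -0.40 ± 0.06 (adjusted p = 1e-05) with scramble and -0.62 ± 0.06 (adjusted p = 1.1e-08) with siLonp1, and HS+REC rose over HS by 0.45 ± 0.06 (adjusted p = 3.2e-06) and 0.64 ± 0.06 (adjusted p = 1.4e-08). The siLonp1 effect in HS was -0.19 ± 0.06 (adjusted p = 0.00995). DNAJC11, a mitochondrial member bound to the cristae-organising complex (chr1:6634168-6701924, minus strand), fell as well. DNAJC11 levels with scramble were 129, 124 and 128 CPM in Ctrl, 115, 111 and 99.7 after HS and 120.1, 109 and 116 after HS+REC. With siLonp1 the DNAJC11 levels were 137, 129.9 and 124 CPM in Ctrl, 95.4, 97.2 and 98.3 after HS and 96.9, 94.0 and 105 after HS+REC. HS and HS+REC lay below Ctrl in both arms, and siLonp1 lay below scramble in HS and HS+REC. DNAJC11 moved with heat by -0.22 ± 0.06 (adjusted p = 0.00626) with scramble and -0.42 ± 0.06 (adjusted p = 5.3e-06) with siLonp1. Without HS scramble replicate 3 the call for DNAJC11 in HS with scramble ended (log2FC -0.14, adjusted p = 0.0843). The HS+REC effect on DNAJC11 was -0.40 ± 0.06 (adjusted p = 8.8e-06) with siLonp1 and was not called with scramble, at -0.14 ± 0.06 (adjusted p = 0.0689). DNAJC11 in HS+REC with scramble was called with library totals as the only scaling (adjusted p = 0.00546) and DESeq2 (adjusted p = 0.0455). Its siLonp1 effect was -0.17 ± 0.06 (adjusted p = 0.0272) after HS and -0.22 ± 0.06 (adjusted p = 0.00407) after HS+REC. The call for siLonp1 on DNAJC11 in HS ended in 4 fits that each left out 1 library (log2FC -0.17 to -0.12, adjusted p 0.0565 to 0.152), without HS scramble replicates 1 and 2 and HS siLonp1 replicates 1 and 2. The value for siLonp1 on DNAJC11 in HS was also uncalled at -0.15 (adjusted p = 0.0763) with no filter on low counts.

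DNAJC6, an auxilin that helps uncoat clathrin vesicles, lies at chr1:65248219-65415871, plus strand. DNAJC6 levels with scramble were 29.1, 27.6 and 29.7 CPM in Ctrl, 35.6, 35.5 and 29.6 after HS and 29.9, 31.5 and 28.5 after HS+REC. With siLonp1 the DNAJC6 levels were 36.9, 37.5 and 37.4 CPM in Ctrl, 40.8, 41.2 and 43.0 after HS and 35.6, 35.1 and 32.0 after HS+REC. The siLonp1 libraries lay above scramble in every condition, HS overlapped Ctrl with scramble and lay above it with siLonp1, and HS+REC lay below Ctrl with siLonp1. Heat raised DNAJC6 with scramble (log2FC 0.22 ± 0.07, adjusted p = 0.0141), and the effect with siLonp1 missed the limit (log2FC 0.16 ± 0.07, adjusted p = 0.0635). In 3 fits that each left out 1 library (log2FC 0.18 to 0.19, adjusted p 0.0724 to 0.0874), the call for DNAJC6 in HS with scramble ended, without Ctrl scramble replicate 2 and HS scramble replicates 1 and 2. The siLonp1 effect on DNAJC6 was 0.37 ± 0.07 (adjusted p = 0.000126) in Ctrl, 0.31 ± 0.07 (adjusted p = 0.000662) after HS and 0.19 ± 0.07 (adjusted p = 0.0218) after HS+REC. Leaving out 1 library ended the call for siLonp1 on DNAJC6 in HS+REC in 4 fits (log2FC 0.16 to 0.19, adjusted p 0.0505 to 0.0886), without HS+REC scramble replicates 1 and 3 and HS+REC siLonp1 replicates 1 and 2. Other settings gave uncalled values for siLonp1 on DNAJC6 in HS+REC, 0.12 (adjusted p = 0.144) with library totals as the only scaling and 0.19 (adjusted p = 0.0782) with a fit of the compared groups alone. The HS effect on DNAJC6 with siLonp1 was called with a filter of 1 CPM in all 18 libraries (adjusted p = 0.0369) and a fit of the compared groups alone (adjusted p = 0.0219) and in 2 fits that each left out 1 library (adjusted p 0.0172 to 0.0426), without HS scramble replicate 3 and HS+REC siLonp1 replicate 1. HS+REC with siLonp1 was not called against Ctrl, at -0.12 ± 0.07 (adjusted p = 0.150). That DNAJC6 difference was called with library totals as the only scaling (adjusted p = 0.0182). DNAJC25 (chr9:111631334-111654351, plus strand) was among the less abundant members. DNAJC25 levels with scramble were 12.2, 10.9 and 11.2 CPM in Ctrl, 9.28, 9.52 and 8.53 after HS and 12.0, 11.5 and 9.53 after HS+REC. With siLonp1 the DNAJC25 levels were 8.65, 11.2 and 9.22 CPM in Ctrl, 7.80, 7.57 and 8.18 after HS and 8.66, 9.23 and 9.05 after HS+REC. HS lay below Ctrl in both arms, and siLonp1 lay below scramble in HS and HS+REC. The heat effect on DNAJC25 was -0.32 ± 0.10 (adjusted p = 0.0122) with scramble and -0.30 ± 0.10 (adjusted p = 0.0179) with siLonp1. The call for DNAJC25 in HS with scramble ended in 2 fits that each left out 1 library (log2FC -0.28 to -0.26, adjusted p 0.0631 to 0.0646), without Ctrl scramble replicate 1 and HS scramble replicate 3. In 2 fits that each left out 1 library (log2FC -0.28 to -0.19, adjusted p 0.0623 to 0.166), the call for DNAJC25 in HS with siLonp1 ended, without Ctrl siLonp1 replicate 2 and HS siLonp1 replicate 2. Between arms DNAJC25 differed in Ctrl by -0.24 ± 0.10 (adjusted p = 0.0485) and in HS+REC by -0.30 ± 0.10 (adjusted p = 0.0143), and was not called in HS, at -0.22 ± 0.10 (adjusted p = 0.0730). Leaving out 1 library ended the call for siLonp1 on DNAJC25 in Ctrl in 13 fits (log2FC -0.27 to -0.16, adjusted p 0.0506 to 0.231), without Ctrl scramble replicates 1, 2 and 3, Ctrl siLonp1 replicates 1 and 3, HS scramble replicates 1 and 2, HS siLonp1 replicates 1, 2 and 3, HS+REC scramble replicate 2 and HS+REC siLonp1 replicates 2 and 3. Uncalled values for siLonp1 on DNAJC25 in Ctrl were -0.22 (adjusted p = 0.0806) with no filter on low counts. The DNAJC25 difference between arms in HS was called with library totals as the only scaling (adjusted p = 0.0127) and a fit of the compared groups alone (adjusted p = 0.0417) and in 3 fits that each left out 1 library (adjusted p 0.0430 to 0.0498), without Ctrl siLonp1 replicate 2, HS scramble replicate 3 and HS+REC scramble replicate 3. The call for siLonp1 on DNAJC25 in HS+REC ended in 2 fits that each left out 1 library (log2FC -0.26 to -0.23, adjusted p 0.0511 to 0.0849), without HS+REC scramble replicates 1 and 2.

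After recovery, 18 members differed from Ctrl with scramble, 13 raised and 5 lowered, beside 42.3% of all genes (21.8% raised, 20.5% lowered). With siLonp1 24 members differed, 14 raised and 10 lowered, beside 51.2% (24.6% raised, 26.6% lowered). A fold change over 2 was met by 8 members with scramble and by 8 with siLonp1, beside 4.46% and 5.71% of all genes. The arms shared 12 raised members (92.3% of the scramble set, 85.7% of the siLonp1 set) and 5 lowered members (100% of the scramble set, 50% of the siLonp1 set). Of 13 cytosolic members, 10 were raised in each arm. In the ER the raised members were DNAJB9 and DNAJB11 in both arms, and 1 of 10 was lowered with scramble and 4 with siLonp1. Among the 5 mitochondrial members only DNAJC15 was raised, in both arms. In the fits that left out 1 library, 17 of the 18 scramble calls and 18 of the 24 siLonp1 calls always held. Medians were 0.06 with scramble and 0.02 with siLonp1.

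Between HS and HS+REC, 16 members changed with scramble, all of them raised, beside 26.8% of all genes (14.2% raised, 12.7% lowered). With library totals as the only scaling 1297 of all genes were raised and 2279 lowered, in place of 1817 and 1628. The count of lowered members was 0 in edgeR, 0 in DESeq2 and 0 by the likelihood ratio test, with 2 at an unadjusted p under 0.05. A lowered value of DNAJC6 in this comparison was called with library totals as the only scaling (adjusted p = 0.0179) and without HS scramble replicate 3 (log2FC -0.26, adjusted p = 0.00334). A lowered value of DNAJC27 was called with library totals as the only scaling (adjusted p = 0.0328) and no filter on low counts (adjusted p = 0.0373) and in 2 fits that each left out 1 library (adjusted p 0.0175 to 0.0293), without Ctrl siLonp1 replicate 1 and HS+REC scramble replicate 1. Without HS scramble replicate 1 the raised count was 10 in place of 16. With siLonp1 14 members were raised and 2 lowered (DNAJC6 and DNAJC22), beside 31.9% (16.3% raised, 15.6% lowered). The arms shared 13 raised members, 81.2% of the scramble set and 92.9% of the siLonp1 set. A fold change over 2 was met by 2 members with scramble (DNAJB6 and DNAJB9) and 1 with siLonp1 (DNAJB9), beside 1.9% and 2.57% of all genes. Every class had raised members here, class A 4 of 4 with scramble and 2 of 4 with siLonp1, class B 4 of 9 in each arm, and class C 8 of 25 in each arm. The member medians were 0.15 with scramble and 0.09 with siLonp1, against 0.01 and -0.01 for all genes. Leaving out any 1 library kept 10 of 16 calls with scramble and 12 of 16 with siLonp1. DNAJC22 was named here after its values were seen.

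DNAJB9, an ER partner of BiP at chr7:108569867-108574850, plus strand, was raised in recovery. DNAJB9 levels with scramble were 7.03, 6.44 and 5.98 CPM in Ctrl, 7.21, 6.61 and 8.44 after HS and 20.2, 23.0 and 20.1 after HS+REC. With siLonp1 the DNAJB9 levels were 6.82, 8.06 and 8.45 CPM in Ctrl, 9.96, 8.23 and 9.34 after HS and 22.4, 25.3 and 20.3 after HS+REC. HS overlapped Ctrl in both arms, HS+REC lay above both, and the arms overlapped in every condition. The HS effect was 0.19 ± 0.11 (adjusted p = 0.220) with scramble and 0.24 ± 0.11 (adjusted p = 0.0892) with siLonp1. The HS effect on DNAJB9 with siLonp1 was called with a fit of the compared groups alone (adjusted p = 0.0485) and without HS siLonp1 replicate 2 (log2FC 0.31, adjusted p = 0.0479). HS+REC differed from HS by 1.52 ± 0.11 (adjusted p = 1.8e-10) with scramble and 1.30 ± 0.10 (adjusted p = 9.3e-10) with siLonp1. Against Ctrl the HS+REC effect was 1.70 ± 0.11 (adjusted p = 5.8e-12) and 1.54 ± 0.11 (adjusted p = 2.2e-11). The siLonp1 effect on DNAJB9 passed the limit in HS (log2FC 0.32 ± 0.11, adjusted p = 0.0203) and missed it in Ctrl (log2FC 0.26 ± 0.11, adjusted p = 0.0599) and HS+REC (log2FC 0.11 ± 0.10, adjusted p = 0.374). The DNAJB9 difference between arms in Ctrl was called with no filter on low counts (adjusted p = 0.0300), the likelihood ratio test (adjusted p = 0.0479) and a fit of the compared groups alone (adjusted p = 0.0300) and in 4 fits that each left out 1 library (adjusted p 0.0248 to 0.0495), without Ctrl scramble replicate 1, Ctrl siLonp1 replicate 1, HS scramble replicate 3 and HS+REC siLonp1 replicate 2. In 4 fits that each left out 1 library (log2FC 0.24 to 0.30, adjusted p 0.0536 to 0.116), the call for siLonp1 on DNAJB9 in HS ended, without HS scramble replicates 1 and 2 and HS siLonp1 replicates 1 and 3. The value for siLonp1 on DNAJB9 in HS was also uncalled at 0.22 (adjusted p = 0.0957) with library totals as the only scaling.

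The siLonp1 effect was next read within each condition. In Ctrl 18 members changed with siLonp1, 10 raised and 8 lowered, beside 49.2% of all genes (26.3% raised, 22.9% lowered). In HS 28 changed, 18 raised and 10 lowered, beside 54.8% (28.1% raised, 26.7% lowered). In HS+REC 21 changed, 11 raised and 10 lowered, beside 54.1% (26.8% raised, 27.3% lowered). Only DNAJC27 in HS passed a fold change of 2, while 4.17% of all genes did so in HS. With library totals as the only scaling siLonp1 in HS raised 2562 and lowered 4751 genes, in place of 3601 and 3425 with TMM, while relative log expression factors gave 3561 and 3480. By library totals HS+REC with scramble raised 2096 and lowered 3906, in place of 2795 and 2632. For siLonp1 in Ctrl they gave 2519 raised and 3908 lowered, in place of 3374 and 2941. With library totals more genes were lowered than raised in every comparison of groups. The member median was 0.01 in Ctrl, 0.15 after HS and 0.02 after HS+REC, beside 0.01, 0.00 and 0.00 for all genes. All 10 members raised in Ctrl were also raised in HS (55.6% of the 18 there), and 5 of 8 lowered in Ctrl were lowered in HS. In all 3 conditions 7 members were raised (DNAJB2, DNAJB11, DNAJC4, DNAJC6, DNAJC7, DNAJC9, DNAJC21) and 5 lowered (DNAJA3, DNAJC12, DNAJC13, DNAJC27, DNAJC30). The share of all genes called in all 3 conditions is not given here, so these 2 counts are descriptions only. With any 1 library left out, DNAJB2, DNAJB11 and DNAJC7 of the raised and DNAJA3, DNAJC13 and DNAJC30 of the lowered kept all their calls. Of the 18, 28 and 21 calls, 10, 18 and 16 held in every such fit.

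By compartment, the mitochondrial members were called in 1 direction only, lowered with siLonp1 in 3 of 5 in Ctrl, 3 of 5 after HS and 4 of 5 after HS+REC. In the ER 4 of 10 were raised in Ctrl and 2 of 10 in HS+REC, all raised, while in HS 6 were raised and 1 lowered. In the cytosol 3 of 13 were raised and 1 lowered in Ctrl, 8 raised and 3 lowered in HS, and 6 raised and 1 lowered in HS+REC. Over all genes 26.3% were raised and 22.9% lowered in Ctrl, 28.1% and 26.7% in HS, and 26.8% and 27.3% in HS+REC, and no compartment was tested against them. Some members outside the rule for named genes were picked out after their values were seen. DNAJC30, a mitochondrial member, changed by -0.71 ± 0.09 (adjusted p = 1.4e-06) in Ctrl, -0.84 ± 0.10 (adjusted p = 1.9e-07) after HS and -0.77 ± 0.09 (adjusted p = 3.1e-07) after HS+REC. DNAJC13, which works on endosomes, changed by -0.54 ± 0.09 (adjusted p = 1.7e-05), -0.53 ± 0.09 (adjusted p = 2.1e-05) and -0.49 ± 0.09 (adjusted p = 5.4e-05) in the same conditions. DNAJA3, the mitochondrial class A member, changed by -0.21 ± 0.06 (adjusted p = 0.00357), -0.18 ± 0.06 (adjusted p = 0.00922) and -0.25 ± 0.06 (adjusted p = 0.000741). DNAJB11, an ER partner of BiP, moved upward by 0.27 ± 0.05 (adjusted p = 0.000283), 0.32 ± 0.05 (adjusted p = 3.2e-05) and 0.36 ± 0.05 (adjusted p = 5.6e-06). No siLonp1 effect was called in any condition for DNAJB4, DNAJB12, DNAJC3, DNAJC16, DNAJC17 and DNAJC24, and DNAJC3 and DNAJC17 had no call in any comparison.

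**Figure D4:**
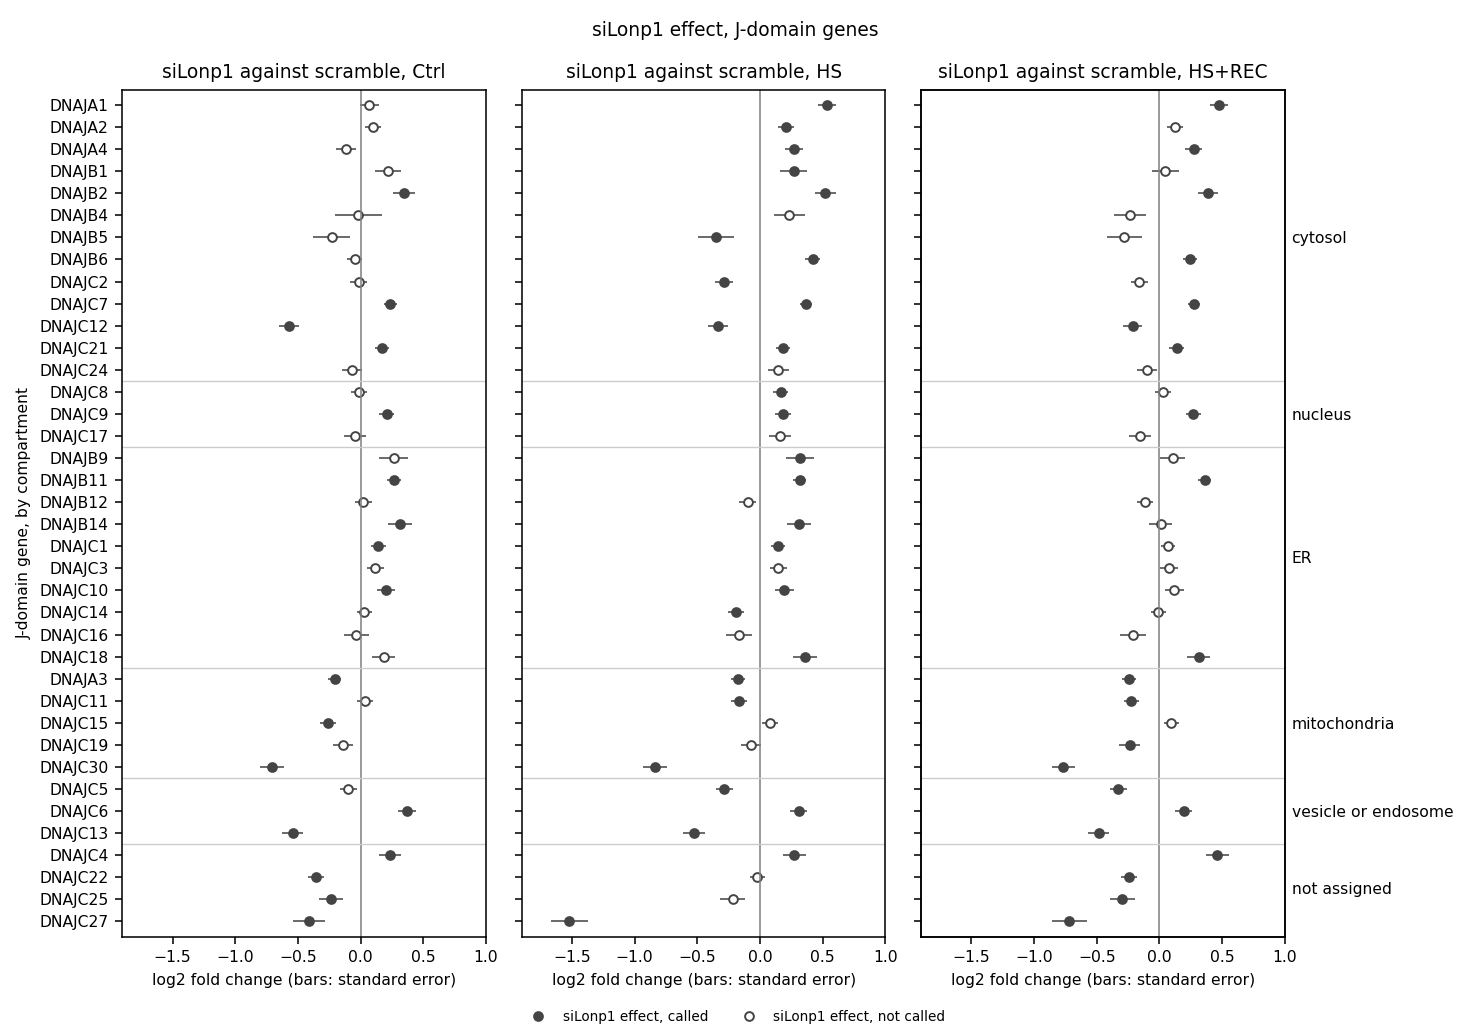
Log2 fold change of siLonp1 against scramble for all 38 members, ordered by compartment, with a panel for each condition. Filled symbols passed the FDR limit, and bars give the standard error.

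Whether the heat effect itself differed between the arms was read from the interaction. In HS it was called for 4 members, 3 upward (DNAJA1, DNAJB6, DNAJC15) and 1 downward (DNAJC27), beside 1.87% of all genes (0.475% upward, 1.39% downward). Of all genes, 61 went upward and 179 downward, against 31 and 67 without HS scramble replicate 1. The counts were 163 and 363 without HS scramble replicate 3, and 142 and 589 in a fit of the compared groups alone. The member count was 2 in each of 6 fits that left out 1 library, without Ctrl scramble replicate 1, Ctrl siLonp1 replicates 1 and 2, HS scramble replicates 1 and 2 and HS siLonp1 replicate 1. In HS+REC it was called for 2 members, DNAJA1 and DNAJC15, both upward, beside 1.58% (0.686% upward, 0.896% downward). No member went downward there in edgeR, with 3 at an unadjusted p under 0.05, 0 in DESeq2 and 0 by the likelihood ratio test. Of all genes, 88 went upward and 115 downward in HS+REC, against 47 and 49 without HS+REC scramble replicate 1. Without HS+REC scramble replicate 3 the counts were 133 and 173. The member count of 2 became 0 in 12 such fits, without Ctrl scramble replicates 1, 2 and 3, Ctrl siLonp1 replicates 1, 2 and 3, HS scramble replicate 1, HS siLonp1 replicates 2 and 3, HS+REC scramble replicate 1 and HS+REC siLonp1 replicates 1 and 2. It became 1 without HS scramble replicate 2 and HS+REC scramble replicate 3, and 4 without HS+REC scramble replicate 2 and HS+REC siLonp1 replicate 3. A fold change over 2 was met by DNAJC27 in HS alone, as by 18 of all genes tested.

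DNAJC27 (class C, chr2:24943636-24972094, minus strand) encodes a protein with a Rab-like GTPase domain. DNAJC27 levels with scramble were 7.03, 6.78 and 6.89 CPM in Ctrl, 5.99, 5.74 and 6.42 after HS and 5.62, 4.67 and 4.14 after HS+REC. With siLonp1 the DNAJC27 levels were 3.94, 5.61 and 6.03 CPM in Ctrl, 1.90, 2.10 and 2.29 after HS and 2.67, 3.18 and 2.91 after HS+REC. The siLonp1 libraries lay below scramble in every condition, and HS siLonp1 lay below every other group. Heat lowered DNAJC27 with siLonp1 (log2FC -1.31 ± 0.15, adjusted p = 1.6e-07) and was not called with scramble (log2FC -0.19 ± 0.13, adjusted p = 0.248). The interaction in HS was -1.11 ± 0.20 (adjusted p = 0.00310), held in every fit without 1 library, and the interaction in HS+REC was -0.31 ± 0.19 (adjusted p = 0.508). The siLonp1 effect was -0.41 ± 0.13 (adjusted p = 0.0108) in Ctrl, -1.52 ± 0.15 (adjusted p = 1.6e-08) after HS and -0.72 ± 0.14 (adjusted p = 0.000182) after HS+REC. Without Ctrl siLonp1 replicate 1 the call for siLonp1 on DNAJC27 in Ctrl ended (log2FC -0.25, adjusted p = 0.104). DNAJB6 (class B, chr7:157335381-157417439, plus strand) suppresses the aggregation of polyglutamine proteins, and the annotation holds 8 pseudogenes named after it. DNAJB6 levels with scramble were 113, 108 and 113 CPM in Ctrl, 213, 205 and 210.4 after HS and 422, 487 and 455 after HS+REC. With siLonp1 the DNAJB6 levels were 106, 108 and 109.5 CPM in Ctrl, 287, 269 and 282 after HS and 552, 561 and 500.4 after HS+REC. DNAJB6 stepped up from Ctrl to HS to HS+REC in both arms, with siLonp1 above scramble in HS and HS+REC and overlapping it in Ctrl. Heat raised it by 0.91 ± 0.06 (adjusted p = 1.5e-11) with scramble and 1.38 ± 0.06 (adjusted p = 5.9e-15) with siLonp1, and HS+REC exceeded HS with scramble and with siLonp1 by 1.12 ± 0.06 (adjusted p = 1.2e-12) and 0.94 ± 0.06 (adjusted p = 1.3e-11). Its interaction in HS was 0.47 ± 0.08 (adjusted p = 0.00310), which held in every fit without 1 library, and in HS+REC 0.29 ± 0.08 (adjusted p = 0.0742). The interaction for DNAJB6 in HS+REC was called with DESeq2 (adjusted p = 0.0140) and the likelihood ratio test (adjusted p = 0.0422) and in 2 fits that each left out 1 library (adjusted p 0.0266 to 0.0297), without HS+REC scramble replicate 2 and HS+REC siLonp1 replicate 3. The DNAJB6 promoter printed is chr7:157336774-157336965 on the plus strand, 192 bases from -230 to -39 of the start site, with a match of 3 units at -131.
DNAJB6: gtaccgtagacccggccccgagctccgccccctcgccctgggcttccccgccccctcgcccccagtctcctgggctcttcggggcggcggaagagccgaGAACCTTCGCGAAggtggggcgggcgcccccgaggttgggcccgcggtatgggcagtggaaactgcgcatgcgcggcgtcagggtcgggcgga

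DNAJA1 (class A, chr9:33025273-33039907, plus strand) is a cytosolic member with 6 named pseudogenes in the annotation. DNAJA1 levels with scramble were 312, 299 and 292 CPM in Ctrl, 907, 905 and 998 after HS and 1344, 1592 and 1504 after HS+REC. With siLonp1 the DNAJA1 levels were 314, 305 and 329 CPM in Ctrl, 1440.1, 1287 and 1342 after HS and 2161, 2188 and 1810.1 after HS+REC. DNAJA1 stepped up from Ctrl to HS to HS+REC in both arms, and siLonp1 lay above scramble in HS and HS+REC and overlapped it in Ctrl. Heat raised it by 1.64 ± 0.07 (adjusted p = 2.1e-14) with scramble and 2.10 ± 0.08 (adjusted p = 1.6e-16) with siLonp1. In HS+REC it reached a fold change over Ctrl of 4.92 with scramble (adjusted p = 2.9e-17) and 6.50 with siLonp1 (adjusted p = 1.2e-18). The interaction was 0.46 ± 0.10 (adjusted p = 0.0179) after HS and 0.40 ± 0.10 (adjusted p = 0.0458) after HS+REC. Leaving out 1 library ended the call for the DNAJA1 interaction in HS in 6 fits (log2FC 0.42 to 0.46, adjusted p 0.0551 to 0.0625), without Ctrl scramble replicate 1, Ctrl siLonp1 replicates 1 and 2, HS scramble replicates 1 and 2 and HS siLonp1 replicate 1. The call for the DNAJA1 interaction in HS+REC ended in 13 fits that each left out 1 library (log2FC 0.34 to 0.43, adjusted p 0.0541 to 0.128), without Ctrl scramble replicates 1, 2 and 3, Ctrl siLonp1 replicates 1, 2 and 3, HS scramble replicates 1 and 2, HS siLonp1 replicates 2 and 3, HS+REC scramble replicate 1 and HS+REC siLonp1 replicates 1 and 2. Other settings gave uncalled values for the DNAJA1 interaction in HS+REC, 0.40 (adjusted p = 0.0765) with a fit of the compared groups alone and 0.40 (adjusted p = 0.0720) with a covariate for replicate number. The siLonp1 effect on DNAJA1 was 0.53 ± 0.07 (adjusted p = 1.8e-06) after HS and 0.47 ± 0.07 (adjusted p = 8.8e-06) after HS+REC, and in Ctrl it was 0.07 ± 0.07 (adjusted p = 0.440).

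DNAJC15 (class C, chr13:43023203-43114213, plus strand), a mitochondrial member also known as MCJ, acts at the import machinery and on complex I. DNAJC15 levels with scramble were 33.6, 34.4 and 37.0 CPM in Ctrl, 37.0, 35.1 and 38.8 after HS and 40.1, 44.2 and 40.6 after HS+REC. With siLonp1 the DNAJC15 levels were 27.9, 29.8 and 30.1 CPM in Ctrl, 40.7, 38.0 and 38.6 after HS and 44.0, 46.6 and 42.9 after HS+REC. The siLonp1 libraries lay below scramble in Ctrl and overlapped it in HS and HS+REC, HS overlapped Ctrl with scramble and lay above it with siLonp1, and HS+REC lay above Ctrl in both arms. Heat raised DNAJC15 with siLonp1 (log2FC 0.42 ± 0.06, adjusted p = 1.1e-05) and was not called with scramble (log2FC 0.08 ± 0.06, adjusted p = 0.381). The HS+REC effect was 0.25 ± 0.06 (adjusted p = 0.00251) with scramble and 0.61 ± 0.06 (adjusted p = 3.2e-08) with siLonp1. The interaction was 0.34 ± 0.09 (adjusted p = 0.0496) after HS and 0.36 ± 0.09 (adjusted p = 0.0431) after HS+REC. In 12 fits that each left out 1 library (log2FC 0.30 to 0.37, adjusted p 0.0511 to 0.146), the call for the DNAJC15 interaction in HS ended, without Ctrl scramble replicates 1, 2 and 3, Ctrl siLonp1 replicates 1, 2 and 3, HS scramble replicates 1 and 2, HS siLonp1 replicates 1, 2 and 3 and HS+REC scramble replicate 1. Leaving out 1 library ended the call for the DNAJC15 interaction in HS+REC in 13 fits (log2FC 0.31 to 0.38, adjusted p 0.0542 to 0.146), without Ctrl scramble replicates 1, 2 and 3, Ctrl siLonp1 replicates 1, 2 and 3, HS scramble replicate 1, HS siLonp1 replicates 2 and 3, HS+REC scramble replicates 1 and 3 and HS+REC siLonp1 replicates 1 and 2. Uncalled values for the DNAJC15 interaction in HS were 0.32 (adjusted p = 0.0617) with library totals as the only scaling, 0.34 (adjusted p = 0.0615) with no filter on low counts and 0.34 (adjusted p = 0.0712) with a covariate for replicate number. The value for the DNAJC15 interaction in HS+REC was also uncalled at 0.34 (adjusted p = 0.0724) with no filter on low counts, 0.35 (adjusted p = 0.0738) with a fit of the compared groups alone and 0.36 (adjusted p = 0.0635) with a covariate for replicate number. The siLonp1 effect in Ctrl was -0.26 ± 0.06 (adjusted p = 0.00184). The DNAJC15 promoter printed is chr13:43023336-43023585 on the plus strand, 250 bases from -250 to -1 of the start site, with a match at -189.
DNAJC15: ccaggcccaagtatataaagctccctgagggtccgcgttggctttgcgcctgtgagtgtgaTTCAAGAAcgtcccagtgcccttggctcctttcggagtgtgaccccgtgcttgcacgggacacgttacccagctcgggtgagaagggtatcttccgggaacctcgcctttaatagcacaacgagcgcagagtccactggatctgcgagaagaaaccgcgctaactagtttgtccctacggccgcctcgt

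**Figure D5:**
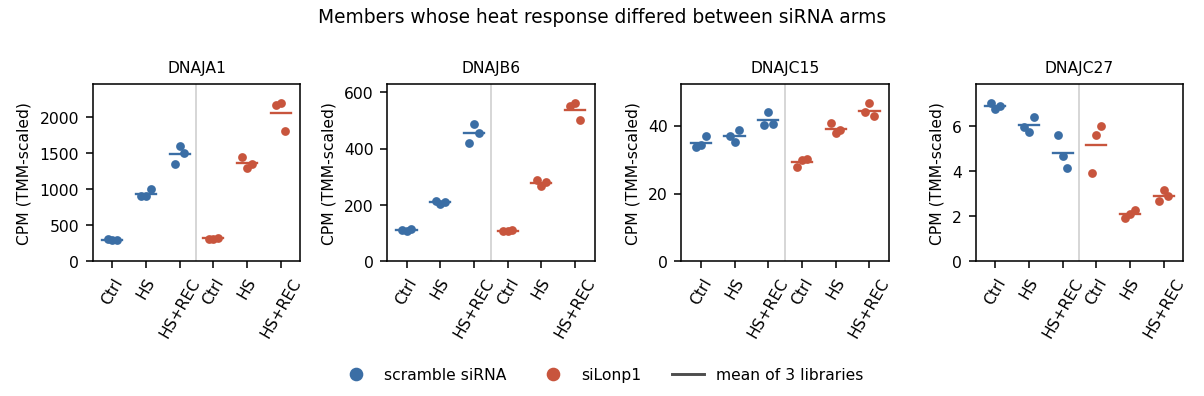
CPM in every library of the members with a called interaction of siLonp1 and heat (DNAJA1, DNAJB6, DNAJC15, DNAJC27). Each point is a library and each line the mean of 3.

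The HSP70 genes that J-domain proteins serve were read beside them. Of 10 HSP70 genes, 7 were raised and 2 lowered in HS with scramble and 6 were raised and 2 lowered with siLonp1, beside 18.6% raised and 17.3% lowered of all genes with scramble and 20.2% and 22.1% with siLonp1, and with median log2FC 0.77 and 0.95. HSPA8, the constitutive cytosolic form, rose by 1.16 ± 0.07 (adjusted p = 1.1e-11) with scramble and 1.43 ± 0.07 (adjusted p = 2.4e-13) with siLonp1. HSPA1A rose by 7.11 ± 0.11 (adjusted p = 6.7e-23) and 6.90 ± 0.11 (adjusted p = 1e-22). HSPA5, the ER form, moved the other way in HS, by -0.47 ± 0.05 (adjusted p = 2.2e-07) and -0.29 ± 0.05 (adjusted p = 7.9e-05). Among 14 exchange factors and other HSP70 cochaperones, 6 were raised and 5 lowered in HS with scramble and 6 were raised and 4 lowered with siLonp1. BAG3 rose by 5.37 ± 0.10 (adjusted p = 1.6e-21) with scramble and 5.73 ± 0.11 (adjusted p = 5.5e-22) with siLonp1. HSPH1 rose by 2.76 ± 0.08 (adjusted p = 1e-17) and 3.51 ± 0.09 (adjusted p = 1.6e-19), with an interaction in HS of 0.75 ± 0.11 (adjusted p = 0.000585). HSPA4L also had a called interaction, 0.65 ± 0.13 (adjusted p = 0.00953) after HS and 0.75 ± 0.13 (adjusted p = 0.00374) after HS+REC.

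SEC63, a J-domain gene with a symbol of another form and a partner of the ER translocon, rose with siLonp1 by 0.74 ± 0.07 (adjusted p = 2.2e-08) in Ctrl, 0.91 ± 0.07 (adjusted p = 9.7e-10) after HS and 1.03 ± 0.07 (adjusted p = 9.1e-11) after HS+REC. Of 14 genes of the ER unfolded protein response, 2 were raised and 5 lowered in HS with scramble and 3 were raised and 6 lowered with siLonp1, and in HS+REC 3 were raised and 3 lowered with scramble and 4 were raised and 3 lowered with siLonp1. HERPUD1 averaged 68.7 CPM with scramble and 39.7 with siLonp1 in Ctrl, 84.5 and 81.8 in HS, and 223 and 217 in HS+REC, so the arms differed mainly in Ctrl. Its siLonp1 effect was -0.79 ± 0.08 (adjusted p = 2.1e-08) in Ctrl, -0.05 ± 0.08 (adjusted p = 0.619) after HS and -0.04 ± 0.07 (adjusted p = 0.632) after HS+REC. HERPUD1 had an interaction of 0.75 ± 0.11 (adjusted p = 0.000525) after HS and 0.75 ± 0.11 (adjusted p = 0.00143) after HS+REC. Of 8 tested genes of the mitochondrial HSP70 and import motor (PAM16 was not tested), 2 were raised and 1 lowered in HS with scramble and 3 were raised and 2 lowered with siLonp1, and in HS+REC 5 were raised with scramble, and 5 were raised and 1 lowered with siLonp1. HSPD1 rose in HS+REC by 1.34 ± 0.07 (adjusted p = 6e-14) with scramble and 1.69 ± 0.07 (adjusted p = 6.7e-16) with siLonp1. In HS the shares of all genes were 18.6% raised and 17.3% lowered with scramble, and 20.2% and 22.1% with siLonp1. In HS+REC the shares of all genes were 21.8% raised and 20.5% lowered with scramble, and 24.6% and 26.6% with siLonp1. The genes given by name from these lists were picked after their values were seen. In the annotation 14 of the members share exon bases with a gene on the opposite strand and 9 with a gene on the same strand, and 32 pseudogenes are named after 8 members, 1 of which is among the counted symbols. For such genes some reads could be counted for the neighbour, or the reverse, and no correction was made. The paper names a stranded library kit, but whether the counting used the strand was not given.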

How the data were processed

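Gene counts as deposited by the authors were used for all 18 libraries, without realignment. The paper gives STAR 2.7.3a on hg38, featureCounts on UCSC genes and R 3.6.3, while the strand setting of the counting was not given in the sources used here. The filter, more than 1 CPM in 3 or more libraries, kept 12832 of 26485 symbols. The tests were run in R 4.3.3 with edgeR 4.0.16 and limma 3.58.1, as quasi-likelihood F tests on TMM-scaled counts with 1 mean per group over all 18 libraries, and p was adjusted by Benjamini-Hochberg over all genes tested. A gene was called at an FDR of 0.05 whatever its fold change, and the limit of the study, a fold change over 2, is given beside it. CPM values are TMM-scaled, except those of the markers and of members near the filter, which are against the library total. Members named with every value were those called with a fold change over 2 in any of the 9 comparisons of groups, those with a called interaction, and the one with the largest absolute effect of HS with scramble in each class and compartment. Members and lists were chosen with earlier results of these data known. Lists are summarised by counts and medians and were not tested as sets. One list, of J-domain genes with other symbols, is not reported here as a whole. Alternatives tried were DESeq2 1.42.0, edgeR's likelihood ratio test, relative log expression size factors, library totals as the only scaling, no filter on low counts or CPM above 1 in all 18 libraries, fits of the compared groups alone, a covariate for replicate number, an FDR of 0.01, the longest transcript as length, and each library left out in turn. The same alternatives for the lists were added after seeing the data. Coordinates are GRCh38 from GENCODE release 44, a release chosen here, and start sites are from RefSeq. Protein sequences were not used here. The p-values rest on spread between libraries within groups, estimated for each gene over all 6 groups together, not over the compared groups alone. The groups differed in this spread. Chi-squared per degree of freedom between library pairs was 3.51 to 6.04 in Ctrl scramble and 17.8 to 25.8 in HS+REC siLonp1. All libraries came from 1 cell line, so spread between cell lines or siRNA sequences is not measured.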

Additional observations from a re-analysis of the deposited data

Results flagged for a closer look

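Each value here is a difference between the siRNA arms in the effect of heat, tested as an interaction in edgeR and given as log2FC. The HS effect on DNAJA1 was larger with siLonp1 (log2FC 0.46, adjusted p = 0.0179). That DNAJA1 call ended in some fits that left out 1 library (adjusted p 0.0551 to 0.0625). DNAJB6 also had the larger HS effect with siLonp1 (log2FC 0.47, adjusted p = 0.00310). For DNAJC15 the HS effect differed between the arms by less, again upward with siLonp1 (log2FC 0.34, adjusted p = 0.0496). That DNAJC15 call ended in most fits that left out 1 library (adjusted p 0.0511 to 0.146). It also ended with a covariate for replicate number (adjusted p = 0.0712), library totals as the only scaling (adjusted p = 0.0617) and no filter on low counts (adjusted p = 0.0615). The difference for DNAJC27 in HS was downward (log2FC -1.11, adjusted p = 0.00310). In HS+REC the effect on DNAJA1 was larger with siLonp1 (log2FC 0.40, adjusted p = 0.0458). The other called difference in HS+REC was that of DNAJC15 (log2FC 0.36, adjusted p = 0.0431). With 1 library left out these HS+REC calls ended in 13 of 18 fits for DNAJA1 and 13 for DNAJC15, and both ended with a covariate for replicate number. DNAJA4 (log2FC 0.39, adjusted p = 0.0593) and DNAJB6 (log2FC 0.29, adjusted p = 0.0742) missed the limit in HS+REC, and DESeq2 and the likelihood ratio test called both. In HS the DNAJA4 difference missed the limit as well (log2FC 0.39, adjusted p = 0.0563). It was called there with DESeq2 (adjusted p = 0.0198) and the likelihood ratio test (adjusted p = 0.0261). No filter on low counts (adjusted p = 0.0135) and a fit of the compared groups alone (adjusted p = 0.00302) also called it. No explanation of these values was tested.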

How the results depend on the processing

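No called value of a member changed sign under any alternative. For the members, LONP1 and HSF1 in all 11 comparisons, DESeq2 kept 427 values on their side of the limit, brought 10 past it and 3 back, and library totals alone kept 387, brought 26 past it and 27 back. Counts of called members stayed within a factor of 1.5 of the count first given under other size factors, library totals alone, other filters on low counts and both other tests, except for the interactions. For the interaction in HS, called for 4 members, the fit of only the groups compared gave 7 and an FDR of 0.01 gave 2. For the interaction in HS+REC, called for 2 members, DESeq2 gave 5, the likelihood ratio test 4, and the fit of only the groups compared 0, as did the replicate number as a covariate and an FDR of 0.01. The cause was not tested, apart from the stricter FDR limit, which by construction calls fewer genes. Adding a fold change over 2 to the call left 4 members in HS with scramble, 6 in HS with siLonp1, 8 in HS+REC with scramble, 8 in HS+REC with siLonp1, 2 and 1 in HS+REC against HS, 1 for siLonp1 in HS and 1 for the interaction in HS, and 0 for siLonp1 in Ctrl, siLonp1 in HS+REC and the interaction in HS+REC, as that limit removes small changes by construction. With 1 library left out, counts ranged 14 to 19 in HS with scramble, 18 to 22 in HS with siLonp1, 17 to 20 in HS+REC with scramble and 19 to 25 in HS+REC with siLonp1. They ranged 10 to 18 and 12 to 17 in HS+REC against HS with scramble and siLonp1. For siLonp1 they ranged 12 to 19 in Ctrl, 19 to 30 in HS and 18 to 22 in HS+REC, and for the interactions 2 to 6 in HS and 0 to 4 in HS+REC. In no comparison were all 3 correlations of same-number residuals above 0.1 (from -0.379 to 0.462), and by that rule the replicate number was kept out of the model. In HS+REC against HS, 2 were above 0.1 in each arm. They ran from -0.161 to 0.275 with scramble and from 0.0904 to 0.262 with siLonp1. The rule therefore does not settle whether libraries of the same number went together there. With the longest transcript as length, the scramble shares in Ctrl and HS were 29.2% and 26.5% for class A, 15.7% and 57.0% for class B, and 55.2% and 16.5% for class C, so the class A share was lower in HS with that length. Interactions rest on 12 libraries each, and a small one in a low-count member such as DNAJC27 or DNAJB5 may not have been detectable at this depth.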
